A study of Mus musculus with 16 samples.

Results

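The genes described here are 95 mouse glycosyltransferase and sulfotransferase genes, taken from 18850 named genes on the array by their symbols. A gene was a member if its symbol began with Galnt, St3gal, St6gal, St8sia, B3gnt, B3galt, B4galt, B4galnt, Fut, Gcnt, C1galt, Chst or Mgat. The rule left out 1 family member by name, and the rule used no measured value. Each of the 95 was represented by 1 probe set. RNA was measured on 16 single-colour arrays of mouse colon organoids, which are cultured balls of colon epithelium, in ENR medium. There were 4 groups of 4 arrays. The first held mutant organoids given the inflammatory cytokine TNFa (tumour necrosis factor alpha) at 50 ng/ml for 12 h, and the second held mutant organoids without TNFa. The third held wild-type (WT) organoids given the same TNFa, and the fourth held WT organoids without it. The mutant organoids carry altered alleles of Atf2 and Atf7, which encode related transcription factors that bind DNA as dimers with AP-1 family partners. Their labels disagree. The genotype field reads "ATF2 fl/fl / ATF7 KO", the description calls ATF2 the knockout and ATF7 the floxed gene, and the titles read "ATF2/7 fl". No label names a Cre or says that a floxed allele was recombined, so loss of both genes is not established. No label says that the numbered arrays came from separate animals or cultures. The p-values therefore measure the spread between these arrays, which may be technical.

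Mucin-type O-glycans are sugar chains that make up much of the mass of the colon's mucus. They begin when a Galnt enzyme puts N-acetylgalactosamine (GalNAc) on a serine or threonine. Further enzymes then build a core, extend it with galactose and N-acetylglucosamine, and cap it with fucose, sialic acid or sulfate. The symbol families are wider than that pathway: Mgat enzymes branch N-glycans, several Chst enzymes sulfate the chondroitin chains of proteoglycans, and some extension and sialylation enzymes act on glycolipids. Values below are deposited log2 signals, where a difference of 1 is a 2-fold change. Errors on differences are standard errors (SE) of a limma fit to all 16 arrays, and errors on group means are SD over 4 arrays. A member was called at an adjusted p under 0.05. Signals of different probe sets are not compared, because brightness depends on the probes.

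Of the 95 members, 65 were bright enough to be tested among 11766 genes, that is, above their array's 40th percentile on at least 4 of the 16 arrays. The label was borne out for a colon epithelial culture. All 8 epithelial markers on the array averaged above 6.56 log2, the highest 40th percentile of any array, below which a signal is called dim here. Of the markers of other cells, 0 of 3 immune and 0 of 3 endothelial genes were above that line, while 2 of 5 fibroblast genes were. The fibroblast list averaged 6.27 to 6.46 log2 per gene on the mutant + TNFa arrays, 6.40 to 6.57 on the mutant arrays, 6.28 to 6.58 on the WT + TNFa arrays and 6.33 to 6.48 on the WT arrays. In bulk RNA, fewer cells of a type and less RNA per cell cannot be told apart. The array WT + TNFa 2 stood apart: its mean correlation with the rest of its group was 0.977, against 0.986 to 0.988 for the other arrays of that group. Member calls that end without it are named below. Calls of marker, mucin and supply genes were not checked without it.

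Promoter sequence was available for some of the members that moved together, and 3 windows are shown as examples with and without a match in the motif search. RefSeq promoters (assembly GRCm38.p6) were matched for 73 of the 95 members and for 15 of the 23 members called in at least 1 comparison. The 250 bases upstream of each annotated start were searched on both strands for the AP-1 motif TGANTCA, the cAMP response element TGACGTCA, which ATF2 family dimers are known to bind, and the kappaB consensus, bound by the TNFa-activated factor NF-kB. The windows are read 5′ to 3′ on the gene's strand, and capitals mark a match. Chst11, the member with the largest TNFa effect, lies at chr10:82985247-82985496, plus strand. Galnt7, lower with TNFa, lies at chr8:57653056-57653305, minus strand. Chst4, lower in mutant than in WT organoids, lies at chr8:110039335-110039584, minus strand. They were chosen after their values were seen.
Chst11: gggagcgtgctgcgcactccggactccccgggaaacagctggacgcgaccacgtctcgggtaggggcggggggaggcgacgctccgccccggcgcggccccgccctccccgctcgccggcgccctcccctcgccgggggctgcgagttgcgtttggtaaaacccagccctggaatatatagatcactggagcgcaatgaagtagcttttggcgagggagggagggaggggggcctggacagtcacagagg
Galnt7: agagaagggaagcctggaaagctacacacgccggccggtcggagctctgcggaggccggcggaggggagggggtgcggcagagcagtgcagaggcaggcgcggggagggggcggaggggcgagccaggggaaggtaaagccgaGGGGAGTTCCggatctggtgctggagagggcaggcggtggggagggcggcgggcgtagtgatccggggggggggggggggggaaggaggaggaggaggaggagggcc
Chst4: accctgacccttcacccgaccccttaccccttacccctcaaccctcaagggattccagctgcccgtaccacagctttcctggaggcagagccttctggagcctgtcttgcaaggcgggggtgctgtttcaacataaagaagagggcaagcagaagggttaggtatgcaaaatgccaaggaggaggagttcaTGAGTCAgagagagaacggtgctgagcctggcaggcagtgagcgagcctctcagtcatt
Chst11 has no match to the 3 motifs, Galnt7 has a kappaB match whose first base lies at -107 from the start, and Chst4 has an AP-1 match at -59. In none of these windows does one motif's match overlap another's. Of the 4 promoters of genes that rose with TNFa in WT organoids, 1 of Chst11 and 3 of Gcnt2, 0 hold any of the motifs. The other genes that rose there, St6galnac1, St3gal1, B4galt6 and Gcnt3, had no promoter matched, so their promoters were not searched. Of the 14 promoters of genes that fell in WT organoids, 1 holds AP-1 (St6gal1, at -15 in 1 of its 3 promoters) and 1 holds kappaB (Galnt7). Fut2, Fut9 and Mgat3, which also fell there, had none matched. Across 32851 RefSeq promoters, 6.75% hold AP-1, 1.55% the cAMP response element and 7.25% kappaB, and among the 100 promoters of members the counts are 8, 2 and 4. The shares among promoters of genes that fell, 1 of 14 for AP-1 and for kappaB, lie near those of all promoters. A match describes letters, not a bound site.

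Sialyltransferases of mucin O-glycans (St6galnac1 and St3gal1), the branching enzyme Gcnt2 and the chondroitin sulfotransferase Chst11 rose with TNFa in both genotypes. The GalNAc transferases Galnt6 and Galnt7, B3gnt5, B4galnt2 and St3gal4 fell in both. In mutant organoids, 6 of 65 tested members rose with TNFa (9.23%, where 3.51% of all tested genes rose) and 5 fell (7.69%, where 2.47% of all tested genes fell). In WT organoids, 6 rose (9.23%, where 5.03% of all tested genes rose) and 11 fell (16.9%, where 5.75% of all tested genes fell). The TNFa counts of each step below stand beside the same shares of all tested genes, and the genotype shares follow the steps. The median TNFa effect over the 65 members was -0.04 in mutant and -0.05 in WT organoids, against medians of 0.01 over all tested genes in each genotype. Of 7 members that rose in at least 1 genotype, 5 rose in both, and of 11 that fell in at least 1, 5 fell in both. Without the array WT + TNFa 2, TNFa called 15 members in mutant organoids, against 11 with all arrays, and those that fell numbered 8 against 5. In WT organoids the counts were 18 without it and 17 with all arrays.

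Goblet cells secrete the mucus that carries these glycans, and their markers were measured on the same arrays. Of 11 goblet markers on the array 10 were tested. The mean of the list per array was 10.63 to 10.69 log2 with TNFa and 10.49 to 10.54 without in mutant organoids, which do not overlap, and 10.48 to 10.59 with TNFa and 10.47 to 10.56 without in WT organoids, which do. Without Ang4, left out after its values were seen, the mean of the other 10 was 10.57 to 10.63 with TNFa and 10.53 to 10.62 without in mutant organoids, which overlap. In WT organoids it was 10.46 to 10.58 with TNFa and 10.60 to 10.64 without, which do not overlap. The median TNFa effect over the 10 tested markers was -0.02 in mutant organoids, with 6 of 10 below 0, and -0.10 in WT organoids, with 9 of 10 below 0. In mutant organoids 1 of 10 rose with TNFa and 0 fell, where 3.51% and 2.47% of all tested genes did. In WT organoids 1 rose and 1 fell, where 5.03% and 5.75% did. Ang4, a secreted antimicrobial protein, was the one that rose, by 1.20 ± 0.14 (adjusted p = 1.79e-05) in mutant and 1.16 ± 0.14 (adjusted p = 2.07e-05) in WT organoids. It was also higher in mutant than in WT organoids with TNFa, by 0.53 ± 0.14 (adjusted p = 0.04997). Muc2, the main secreted mucin and defining marker, had TNFa effects of -0.02 ± 0.07 (adjusted p = 0.956) in mutant and -0.25 ± 0.07 (adjusted p = 0.0216) in WT organoids, and Retnlb was dim. Of 5 absorptive colonocyte markers, 1 rose with TNFa in each genotype, Car2, a carbonic anhydrase, by 0.36 in mutant (adjusted p = 1.34e-04) and 0.24 in WT organoids (adjusted p = 0.00323). With TNFa it was also higher in mutant than in WT organoids, with a difference of 0.19 ± 0.05 (adjusted p = 0.0433). Their part in the enzyme differences was not tested.

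**Figure D1:**
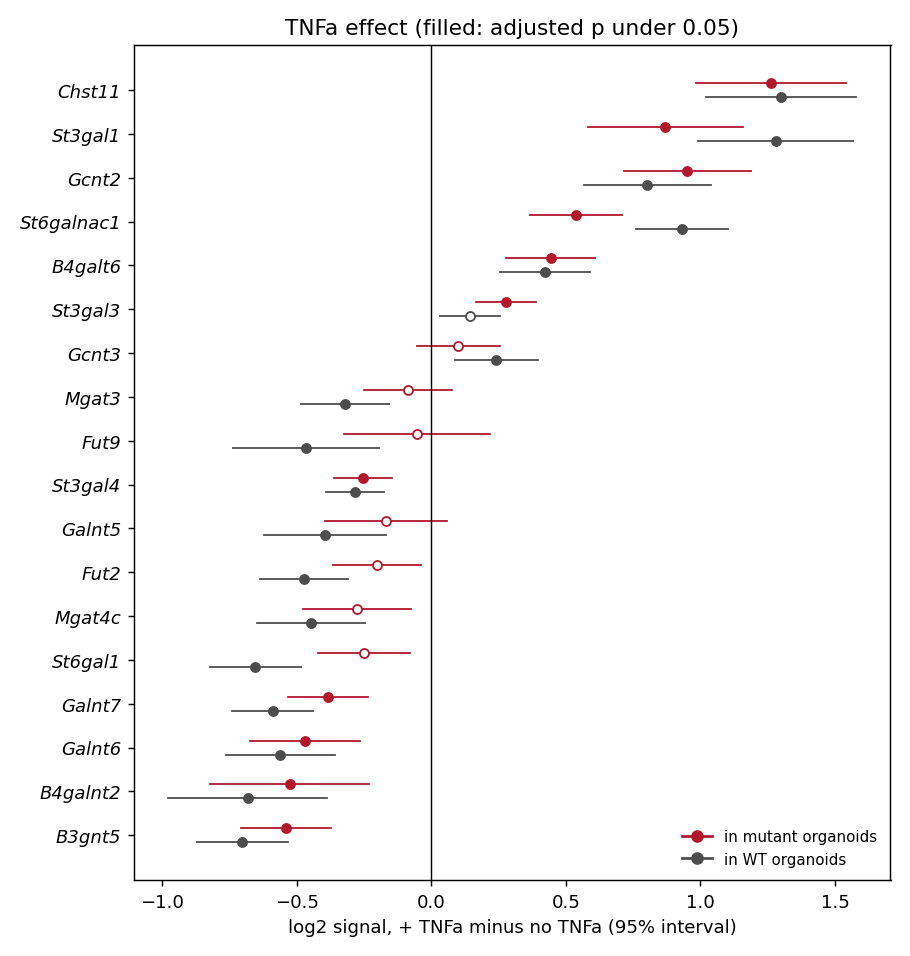
TNFa effect on the 18 members called in either genotype, as the log2 signal with TNFa minus that without (horizontal axis), in mutant organoids (red) and WT organoids (grey). Points are fitted differences, bars their 95% intervals, and filled points were called; Chst11, St3gal1, Gcnt2 and St6galnac1 lie furthest right, and B3gnt5 and B4galnt2 furthest left.

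All Galnt genes were grouped as initiation enzymes by family, whether or not they add the first GalNAc. Of the 10 tested, 0 rose with TNFa, 2 fell in mutant organoids and 3 fell in WT organoids. Galnt7 encodes a transferase that prefers substrates already carrying GalNAc. Its log2 signal was 9.47, 9.31, 9.56 and 9.36 on the mutant + TNFa arrays, against 9.78, 9.73, 9.81 and 9.91 on the mutant arrays. It was 9.40, 9.65, 9.40 and 9.56 on the WT + TNFa arrays, against 10.02, 10.13, 10.08 and 10.14 on the WT arrays. In each genotype all 4 TNFa arrays lay below all 4 arrays without TNFa. The TNFa effect was -0.38 ± 0.07 (adjusted p = 0.00221) in mutant and -0.59 ± 0.07 (adjusted p = 2.47e-05) in WT organoids. Galnt6, an enzyme that adds the first GalNAc, was also lower with TNFa. Its signal was 8.001, 8.26, 8.31 and 8.12 on the mutant + TNFa arrays, against 8.66, 8.63, 8.52 and 8.76 on the mutant arrays. It was 8.01, 8.32, 7.84 and 8.001 on the WT + TNFa arrays, against 8.42, 8.64, 8.66 and 8.70 on the WT arrays. These groups did not overlap in either genotype, and the effects were -0.47 ± 0.10 (adjusted p = 0.0056) and -0.56 ± 0.10 (adjusted p = 8.44e-04) in mutant and WT organoids. Galnt5, of the same family, fell in WT organoids by 0.39 ± 0.11 (adjusted p = 0.0247), with means of 6.82 ± 0.21 with TNFa and 7.22 ± 0.06 without. That call ended when the array WT + TNFa 2, WT + TNFa 4, WT 1 or WT 4 was left out (adjusted p up to 0.0680). In mutant organoids Galnt5 had a TNFa effect of -0.17 ± 0.11 (adjusted p = 0.526).

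By genotype, limma called 0 of the 10 initiation enzymes with TNFa, where 2 had an unadjusted p under 0.05, and 2 were lower in mutant than in WT organoids without it. Galnt1, a broadly expressed initiation enzyme, was 6.97, 7.32, 7.17 and 7.23 on the mutant arrays, against 7.57, 7.66, 7.47 and 7.78 on the WT arrays. All mutant arrays lay below all WT arrays, and the difference was -0.44 ± 0.11 (adjusted p = 0.0382). Galnt7 differed by -0.29 ± 0.07 (adjusted p = 0.0406). With TNFa the same differences were -0.05 ± 0.11 (adjusted p = 0.897) for Galnt1 and -0.08 ± 0.07 (adjusted p = 0.684) for Galnt7. Both calls were close to the threshold: leaving out 1 array ended the Galnt1 call for 8 of 16 arrays and the Galnt7 call for 9 of 16, with adjusted p up to 0.133 and 0.129. Galnt10, which averaged 10.83 over the 16 arrays, was called in none of the 5 comparisons; its mutant minus WT difference with TNFa was -0.31 ± 0.08 (adjusted p = 0.0649).

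Of 6 tested core and branching enzymes, 1 rose with TNFa in mutant organoids, 2 rose in WT organoids and 0 fell in either. C1galt1, which makes the core 1 structure, had TNFa effects of 0.10 ± 0.05 (adjusted p = 0.376) in mutant and 0.05 ± 0.05 (adjusted p = 0.598) in WT organoids. C1galt1c1, its chaperone, had 0.25 ± 0.08 (adjusted p = 0.0765) and 0.22 ± 0.08 (adjusted p = 0.078) in the same order of genotypes. Neither was called in any comparison, and neither were Gcnt1 and Gcnt4, which make core 2 branches. Gcnt1 had TNFa effects of -0.38 ± 0.13 (adjusted p = 0.101) in mutant and -0.30 ± 0.13 (adjusted p = 0.162) in WT organoids, and Gcnt4 of -0.15 ± 0.07 (adjusted p = 0.339) and 0.05 ± 0.07 (adjusted p = 0.726). Without the array WT + TNFa 2, limma called C1galt1c1 higher (adjusted p = 0.0098) and Gcnt1 lower (adjusted p = 0.0255) with TNFa in mutant organoids. B3gnt6, the core 3 enzyme of the colon, was dim on all arrays with a mean of 4.62 and was not tested.

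Gcnt2, which adds the branches of the I blood group antigen, had the largest TNFa effect of this step. Its signal was 9.40, 9.32, 9.39 and 9.45 on the mutant + TNFa arrays, against 8.46, 8.78, 8.26 and 8.24 on the mutant arrays. It was 9.46, 9.21, 9.71 and 9.65 on the WT + TNFa arrays, against 8.69, 8.62, 8.78 and 8.73 on the WT arrays. TNFa arrays lay above untreated arrays in both genotypes without overlap. It rose 1.93-fold in mutant organoids, by 0.95 ± 0.11 (adjusted p = 2.49e-05), and 1.75-fold in WT organoids, by 0.80 ± 0.11 (adjusted p = 1.12e-04). Gcnt3, the mucin-type enzyme that makes core 2 and core 4 branches in the gut, averaged 9.15 ± 0.13 on the WT + TNFa arrays and 8.91 ± 0.06 on the WT arrays. Its rise of 0.24 ± 0.07 (adjusted p = 0.0417) ended on leaving out any of 11 arrays, the array WT + TNFa 2 among them (adjusted p up to 0.113), and under 5 other settings. In mutant organoids the Gcnt3 effect was 0.10 ± 0.07 (adjusted p = 0.6). By genotype, limma called 0 of the 6 tested core enzymes with TNFa and 0 without, and 2 had an unadjusted p under 0.05 in each condition.

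**Figure D2:**
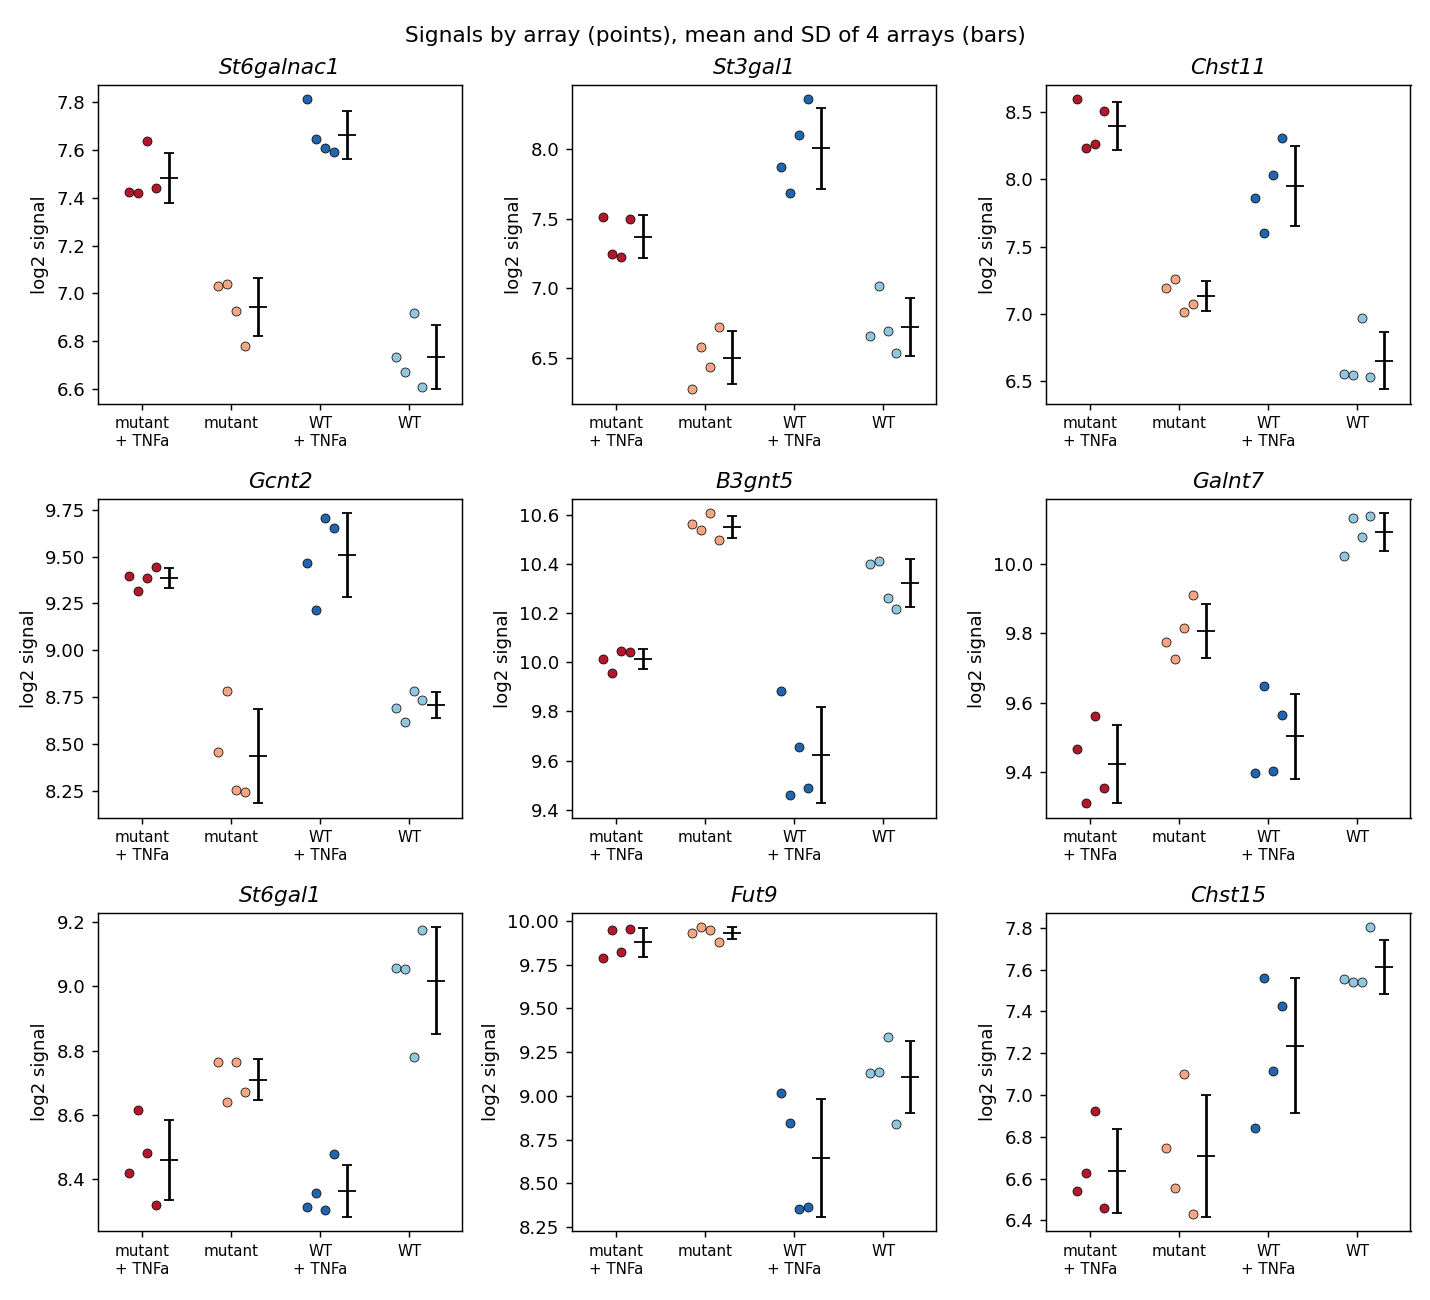
Log2 signal (vertical axis, its range set per panel) of 9 members on each array, with points for arrays, in the order mutant + TNFa, mutant, WT + TNFa and WT, and the mean ± SD of 4 arrays beside them. The first 4 members lie higher with TNFa in both genotypes, and B3gnt5, Galnt7 and St6gal1 lie lower. Fut9 separates mutant from WT organoids in both conditions, and Chst15 only without TNFa.

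Chain extension held the most members, 24, of which 22 were tested. With TNFa 1 rose and 2 fell in each genotype. B4galt6 makes lactosylceramide, the base of most glycolipids. Its signal was 11.17, 10.98, 11.10 and 11.15 on the mutant + TNFa arrays, against 10.62, 10.81, 10.59 and 10.62 on the mutant arrays. It was 11.11, 10.87, 11.19 and 11.28 on the WT + TNFa arrays, against 10.68, 10.74, 10.67 and 10.68 on the WT arrays. All TNFa arrays exceeded all untreated ones within each genotype, and the rises were 0.44 ± 0.08 (adjusted p = 0.00155) in mutant and 0.42 ± 0.08 (adjusted p = 0.0016) in WT organoids. B3gnt5, which starts lacto-series glycolipids by adding N-acetylglucosamine to lactosylceramide, went the opposite way. It had 10.01, 9.96, 10.04 and 10.04 on the mutant + TNFa arrays, against 10.57, 10.54, 10.61 and 10.50 on the mutant arrays. It had 9.88, 9.46, 9.66 and 9.49 on the WT + TNFa arrays, against 10.40, 10.41, 10.26 and 10.22 on the WT arrays. The groups were fully separated, with effects of -0.54 ± 0.08 (adjusted p = 2.85e-04) in mutant and -0.70 ± 0.08 (adjusted p = 1.32e-05) in WT organoids. The WT + TNFa arrays were also below the mutant + TNFa arrays, and the genotype difference with TNFa was 0.39 ± 0.08 (adjusted p = 0.011), against 0.23 ± 0.08 (adjusted p = 0.176) without it. The call with TNFa ended in a fit to the compared groups alone (adjusted p = 0.0712).

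B4galnt2, the enzyme of the Sda antigen of the colon, fell with TNFa. Its signal was 9.20, 9.66, 9.64 and 9.75 on the mutant + TNFa arrays, against 10.29, 9.87, 10.21 and 9.99 on the mutant arrays. It was 9.69, 9.97, 9.78 and 9.85 on the WT + TNFa arrays, against 10.24, 10.25, 10.78 and 10.74 on the WT arrays. The 4 mutant + TNFa arrays and the 4 WT + TNFa arrays each lay below their untreated arrays. The effects were -0.52 ± 0.14 (adjusted p = 0.0321) in mutant and -0.68 ± 0.14 (adjusted p = 0.00359) in WT organoids, and the call in mutant organoids ended without any of the arrays mutant + TNFa 1, mutant + TNFa 3, mutant 1 and mutant 3 (adjusted p up to 0.124). B3galt5, which makes type 1 chains, was the extension enzyme called for genotype without TNFa. It averaged 9.79 ± 0.07 in mutant and 10.13 ± 0.04 in WT organoids, a difference of -0.34 ± 0.06 (adjusted p = 0.00484). With TNFa the difference was -0.02 ± 0.06 (adjusted p = 0.948). Its TNFa effect was 0.15 ± 0.06 (adjusted p = 0.255) in mutant and -0.18 ± 0.06 (adjusted p = 0.0841) in WT organoids, and the difference of these effects was 0.33 (95% interval 0.14 to 0.51, adjusted p = 0.345), which did not pass the test.

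Among the 6 tested fucosyltransferases, 2 were higher in mutant than in WT organoids with TNFa, and 2 were higher and 1 lower without it. Fut9 and Fut4, which make the Lewis x structure, were higher in mutant organoids with and without TNFa, and Fut2, which makes the H antigen of secreted mucins, was lower without TNFa. With TNFa, Fut9 was 9.79, 9.95, 9.82 and 9.95 on the mutant + TNFa arrays, against 9.02, 8.85, 8.35 and 8.36 on the WT + TNFa arrays. Without TNFa it was 9.93, 9.96, 9.95 and 9.88 on the mutant arrays, against 9.13, 9.14, 9.34 and 8.84 on the WT arrays. Every mutant array exceeded every WT array. The difference was 2.35-fold with TNFa, 1.23 ± 0.13 (adjusted p = 3.21e-05), and 1.76-fold without it, 0.82 ± 0.13 (adjusted p = 0.00117). The TNFa effect on Fut9 was -0.05 ± 0.13 (adjusted p = 0.928) in mutant organoids. In WT organoids it was -0.46 ± 0.13 (adjusted p = 0.0262), although the WT + TNFa and WT arrays overlapped, and this call ended without the array WT + TNFa 3, WT + TNFa 4, WT 1, WT 2 or WT 3 (adjusted p up to 0.0939).

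Fut4 was dim in both WT groups. With TNFa its signal was 6.74, 7.01, 6.72 and 6.99 on the mutant + TNFa arrays, against 6.07, 6.17, 6.38 and 6.23 on the WT + TNFa arrays. Without TNFa it was 6.92, 6.94, 6.69 and 6.50 on the mutant arrays, against 6.13, 6.23, 6.49 and 6.24 on the WT arrays. The groups did not overlap, and the differences were 0.66 ± 0.11 (adjusted p = 0.00193) and 0.48 ± 0.11 (adjusted p = 0.019) with and without TNFa. Fut4 passed the brightness filter through its mutant arrays, so that its being tested already depends on the genotype, and its fold change is approximate. Without TNFa its call ended when the array mutant 1, mutant 2, WT 1, WT 2 or WT 4 was left out (adjusted p up to 0.0763). Fut2 was 8.55, 8.59, 8.24 and 8.56 on the WT + TNFa arrays, against 8.92, 9.10, 8.85 and 8.97 on the WT arrays. The groups did not overlap, and the TNFa effect was -0.20 ± 0.08 (adjusted p = 0.176) in mutant and -0.47 ± 0.08 (adjusted p = 5.14e-04) in WT organoids. Its genotype difference was -0.05 ± 0.08 (adjusted p = 0.82) with TNFa and -0.33 ± 0.08 (adjusted p = 0.0294) without, a call lost on leaving out any of 6 arrays (adjusted p up to 0.107). Of the 6 fucosyltransferases tested, 0 rose with TNFa in either genotype.

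**Figure D3:**
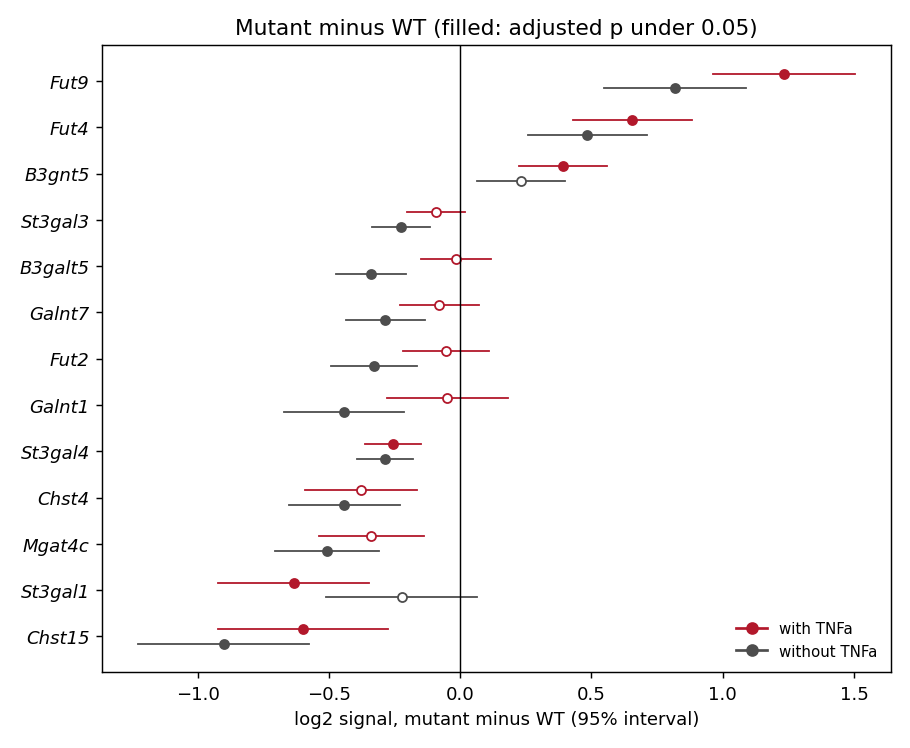
Genotype difference of the 13 members called with or without TNFa, as log2 signal of mutant minus WT organoids (horizontal axis), with TNFa (red) and without (grey). Points are fitted differences, bars 95% intervals and filled points were called; Fut9 and Fut4 lie right of 0 in both conditions, and Chst15 and St3gal4 left of 0 in both.

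Sialylation moved in both directions with TNFa: of 9 tested sialyltransferases, 3 rose and 1 fell in mutant organoids, and 2 rose and 2 fell in WT organoids. St6galnac1 puts sialic acid on the first GalNAc, which makes the sialyl-Tn structure. Its log2 signal was 7.43, 7.42, 7.64 and 7.44 on the mutant + TNFa arrays, against 7.03, 7.04, 6.92 and 6.78 on the mutant arrays. It was 7.81, 7.64, 7.61 and 7.59 on the WT + TNFa arrays, against 6.73, 6.67, 6.92 and 6.61 on the WT arrays. TNFa arrays and untreated arrays were separate in both genotypes, and the rises were 0.54 ± 0.08 (adjusted p = 3.45e-04) in mutant and 0.93 ± 0.08 (adjusted p = 6.56e-07) in WT organoids. The difference of the TNFa effects was -0.39 (95% interval -0.64 to -0.15, adjusted p = 0.391), so a smaller response in mutant organoids was not established. Mutant and WT arrays overlapped in both conditions, and their differences were -0.18 ± 0.08 (adjusted p = 0.327) with TNFa and 0.21 ± 0.08 (adjusted p = 0.24) without.

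St3gal1 caps the galactose of core 1 with sialic acid. Its signal was 7.51, 7.25, 7.22 and 7.50 on the mutant + TNFa arrays, against 6.27, 6.58, 6.43 and 6.72 on the mutant arrays. It was 7.87, 7.68, 8.10 and 8.36 on the WT + TNFa arrays, against 6.65, 7.02, 6.69 and 6.53 on the WT arrays. The groups did not overlap in either genotype. The rises were 1.83-fold in mutant organoids, 0.87 ± 0.14 (adjusted p = 5.23e-04), and 2.43-fold in WT organoids, 1.28 ± 0.14 (adjusted p = 6.36e-06). The mutant group without TNFa averaged 6.50, in the dim range, so its fold is approximate. With TNFa, mutant organoids lay below WT organoids on all arrays, with a difference of -0.63 ± 0.14 (adjusted p = 0.0158), and without TNFa it was -0.22 ± 0.14 (adjusted p = 0.533). The call with TNFa ended without the array mutant + TNFa 2, mutant + TNFa 3 or WT + TNFa 3 (adjusted p up to 0.0571), and the difference of the TNFa effects was -0.41 (95% interval -0.82 to -0.0033, adjusted p = 0.682).

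St3gal4, which sialylates galactose at the ends of lactosamine chains, was lower both with TNFa and in the mutant. Its signal was 10.85, 10.91, 10.79 and 10.89 on the mutant + TNFa arrays, against 11.04, 11.09, 11.21 and 11.12 on the mutant arrays. It was 11.14, 11.08, 11.10 and 11.14 on the WT + TNFa arrays, against 11.39, 11.39, 11.39 and 11.42 on the WT arrays. The 4 WT arrays were higher than all other arrays. TNFa effects were -0.25 ± 0.05 (adjusted p = 0.00431) in mutant and -0.28 ± 0.05 (adjusted p = 0.00114) in WT organoids. The genotype differences were -0.25 ± 0.05 (adjusted p = 0.00953) with TNFa, a call that ended in a fit to the compared groups alone (adjusted p = 0.0595), and -0.29 ± 0.05 (adjusted p = 0.00341) without. St3gal3, an enzyme of the same reaction, averaged 11.13 ± 0.04 on the mutant + TNFa arrays and 10.85 ± 0.04 on the mutant arrays, a rise of 0.28 ± 0.05 (adjusted p = 0.0027). In WT organoids its TNFa effect was 0.15 ± 0.05 (adjusted p = 0.0932). It was lower in mutant than in WT organoids without TNFa, with a difference of -0.23 ± 0.05 (adjusted p = 0.0271), a call that ended without the array mutant 1, mutant 4, WT 1 or WT 4 (adjusted p up to 0.108).

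St6gal1 adds sialic acid in a different linkage, to the galactose ends of N-glycans. Its signal was 8.42, 8.62, 8.48 and 8.32 on the mutant + TNFa arrays, against 8.76, 8.64, 8.76 and 8.67 on the mutant arrays. It was 8.31, 8.36, 8.30 and 8.48 on the WT + TNFa arrays, against 9.06, 9.05, 8.78 and 9.17 on the WT arrays. The TNFa groups lay below the untreated groups in both genotypes, with effects of -0.25 ± 0.08 (adjusted p = 0.0891) in mutant and -0.65 ± 0.08 (adjusted p = 3.33e-05) in WT organoids. The WT fall was called and the mutant one was not, while the difference between these effects was 0.40 (95% interval 0.16 to 0.64, adjusted p = 0.363) and was not called. Without TNFa all mutant arrays lay below all WT arrays. That genotype difference was not called with all arrays. It was called under some other settings, among them without the array WT + TNFa 2 (-0.31, adjusted p = 0.0467).

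Sulfation held 13 members, of which 6 were tested, 1 rose with TNFa in each genotype and 0 fell. Chst11 sulfates chondroitin chains. Its signal was 8.59, 8.23, 8.26 and 8.51 on the mutant + TNFa arrays, against 7.19, 7.26, 7.01 and 7.08 on the mutant arrays. It was 7.86, 7.60, 8.04 and 8.31 on the WT + TNFa arrays, against 6.56, 6.55, 6.97 and 6.54 on the WT arrays. All TNFa arrays lay above all untreated arrays, including those of the other genotype. The rises were 2.4-fold in mutant organoids, 1.26 ± 0.13 (adjusted p = 6.06e-06), and 2.46-fold in WT organoids, 1.30 ± 0.13 (adjusted p = 3.90e-06), with a difference between them of -0.04 (95% interval -0.43 to 0.36, adjusted p = 0.982). The arrays WT 1, WT 2 and WT 4 lay at the dim line of 6.56 log2, so the fold in WT organoids is approximate. Mutant minus WT differences were 0.45 ± 0.13 (adjusted p = 0.0914) with TNFa and 0.48 ± 0.13 (adjusted p = 0.0653) without, and neither was called. Each was called under some other settings. Among these were leaving out WT + TNFa 4 for that with TNFa (0.57, adjusted p = 0.0235) and WT 3 for that without (0.59, adjusted p = 0.0235).

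The other called sulfotransferases differed by genotype. Chst15 adds a further sulfate to chondroitin. With TNFa it was 6.54, 6.62, 6.92 and 6.46 on the mutant + TNFa arrays, against 6.84, 7.56, 7.11 and 7.42 on the WT + TNFa arrays. Without TNFa it was 6.74, 6.56, 7.10 and 6.43 on the mutant arrays, against 7.56, 7.54, 7.54 and 7.80 on the WT arrays. The arrays without TNFa did not overlap, and the difference there was 1.87-fold lower in the mutant, -0.90 ± 0.15 (adjusted p = 0.00255). The arrays mutant 2 and mutant 4 lay at or below the dim line of 6.56 log2, so this fold is approximate. With TNFa the mutant and WT arrays overlapped, the difference was -0.60 ± 0.15 (adjusted p = 0.0467), and that call ended on leaving out any of 12 of the 16 arrays, the array WT + TNFa 2 among them (adjusted p up to 0.145). Chst4 sulfates N-acetylglucosamine on mucin-type chains. Without TNFa its signal was 9.19, 9.22, 8.95 and 9.003 on the mutant arrays, against 9.43, 9.73, 9.45 and 9.52 on the WT arrays. No mutant array reached the WT arrays, and the difference was -0.44 ± 0.10 (adjusted p = 0.0231), with the call ended by leaving out the array mutant 3, mutant 4, WT 2 or WT 4 (adjusted p up to 0.0868). With TNFa the difference was -0.38 ± 0.10 (adjusted p = 0.0553), and the TNFa effect on Chst4 was 0.02 ± 0.10 (adjusted p = 0.961) in mutant and -0.04 ± 0.10 (adjusted p = 0.861) in WT organoids.

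Among the 6 tested N-glycan branching genes, limma called 0 with TNFa in mutant organoids, where 2 had an unadjusted p under 0.05, and 2 fell in WT organoids. Mgat4c, a relative of the enzymes that start an extra antenna, was 9.66, 9.56, 9.73 and 9.62 on the mutant + TNFa arrays, against 9.83, 10.02, 9.93 and 9.89 on the mutant arrays. It was 10.12, 9.64, 10.02 and 10.14 on the WT + TNFa arrays, against 10.47, 10.58, 10.29 and 10.36 on the WT arrays. The WT arrays stood above all others. Its TNFa effect was -0.28 ± 0.09 (adjusted p = 0.114) in mutant and -0.45 ± 0.09 (adjusted p = 0.00464) in WT organoids, and its genotype difference -0.34 ± 0.09 (adjusted p = 0.0702) with TNFa and -0.51 ± 0.09 (adjusted p = 0.00492) without. Without the array WT + TNFa 2, limma also called Mgat4c lower with TNFa in mutant organoids (adjusted p = 0.0133). It then called the genotype difference with TNFa too (-0.45, adjusted p = 0.00186). Mgat3, which adds the bisecting N-acetylglucosamine, averaged 9.28 ± 0.17 on the WT + TNFa arrays and 9.60 ± 0.04 on the WT arrays, a difference of -0.32 ± 0.08 (adjusted p = 0.0119). That call ended in a fit to the compared groups alone (adjusted p = 0.0550). In mutant organoids its effect was -0.09 ± 0.08 (adjusted p = 0.712). Mgat4a, with a mean of 11.19, was called in none of the comparisons.

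**Figure D4:**
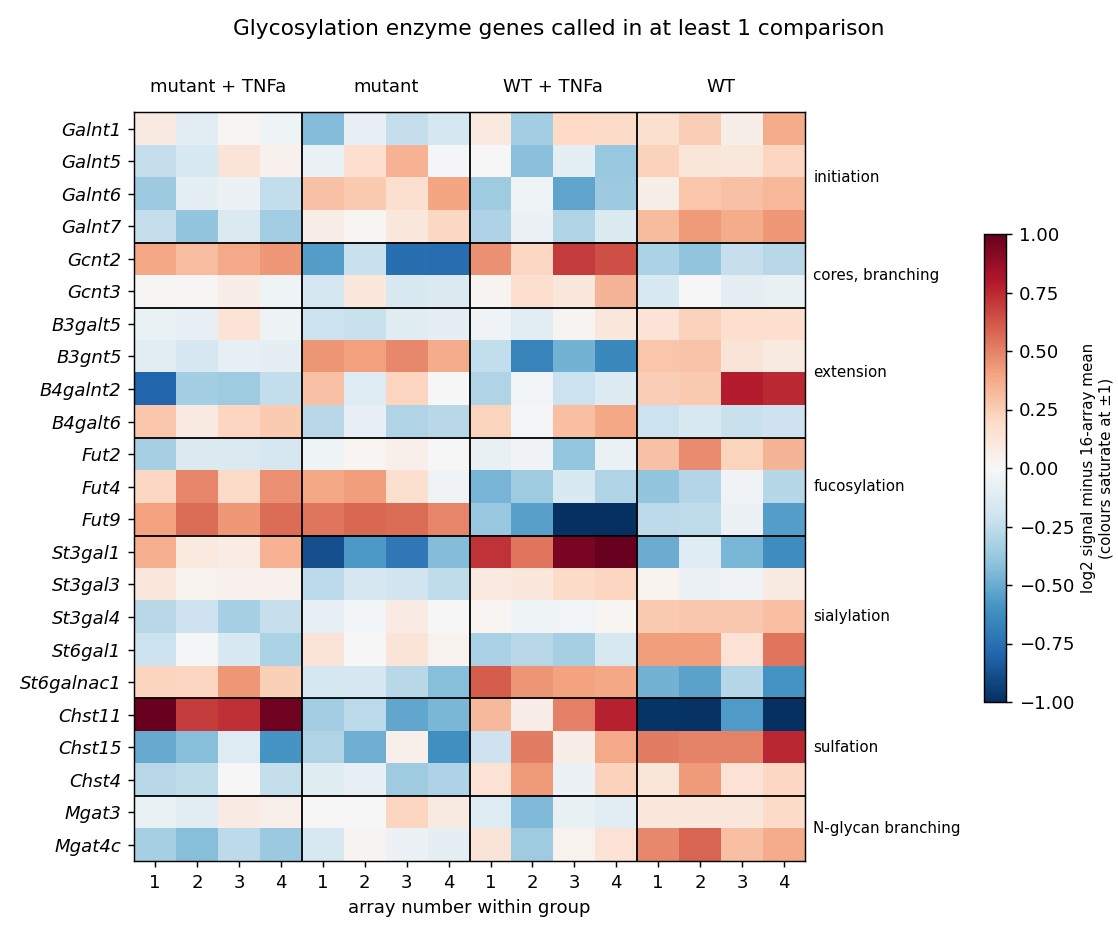
The 23 members called in at least 1 comparison (lines, grouped by step of synthesis) on the 16 arrays (columns, by group), as the log2 signal minus the member's own mean over the 16 arrays. Red is above and blue below that mean; values ran from -1.04 to 1.21, and colours saturate at 1. Chst11, St3gal1, St6galnac1 and Gcnt2 are red with TNFa, and Fut9 is red on all mutant arrays.

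Genotype was compared over all steps within each condition. With TNFa, 3 of 65 were higher in mutant than in WT organoids (4.62%, where 1.56% of all tested genes were higher) and 3 were lower (4.62%, where 1.13% of all tested genes were lower). Without TNFa, 2 were higher (3.08%, where 1.00% of all tested genes were higher) and 9 were lower (13.8%, where 1.48% of all tested genes were lower). Both counts of higher members include Fut4, which passed the brightness filter through its mutant arrays, so its place among them already depends on the genotype. Without the array WT + TNFa 2 the counts called were 7 with TNFa and 13 without. Without TNFa, 7 were called when the array mutant 4 was left out, 6 when mutant 1, WT 1 or WT 2 was, and 5 when WT 4 was. The 3 lower with TNFa became 1 without the array mutant + TNFa 2. The median difference over the 65 members was -0.02 with TNFa and -0.03 without, against -0.0012 and -0.0060 over all tested genes. Fut9 and Fut4 were higher in both conditions, among 3 higher in either, and Chst15 and St3gal4 lower in both, among 10 lower in either. Galnt7, Fut2, St3gal4 and Mgat4c were lower both in mutant than in WT organoids without TNFa and in WT organoids with TNFa than without. Those comparisons share the 4 WT arrays and are not independent. Of the epithelial markers, Cdx2, a transcription factor of intestinal identity, was lower in mutant than in WT organoids without TNFa, with a difference of -0.52 ± 0.11 (adjusted p = 0.0158), and its part in these differences was not tested.

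The TNFa effect was not shown to differ between genotypes for any member. Of 65 tested members limma called 0 for the difference of TNFa effects, where 1 of all tested genes (0.00850%) was called, and 11 members had an unadjusted p under 0.05, as did 855 of the 11766 tested genes. The 17 members called in WT organoids had the same sign in mutant organoids in 17 of 17. In 15 of 17 the effect was larger in WT organoids, but these were picked by their WT effect. The median difference of effects was 0.05 over the members and 0.01 over all tested genes.

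The 30 members set aside had means of 2.98 to 6.36 log2 over the 16 arrays. They were 7 initiation enzymes, 2 core enzymes, 2 extension enzymes, 2 fucosyltransferases, 6 sialyltransferases, 7 sulfotransferases and 4 N-glycan branching genes. They include Galntl6 (3.82), B3galt1 (4.90), Fut10 (5.53), St6galnac5 (4.56), Chst9 (2.98) and Mgat4e (4.36). With the filter off, 0 of the 30 was called in any comparison, and the smallest adjusted p was 0.127, for Galnt15 with TNFa in WT organoids. A dim signal does not show that a gene is off.

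The proteins that carry O-glycans and the genes that supply their sugars were measured beside the enzymes, from lists written for this account. Of 6 tested mucins, limma called 0 with TNFa in mutant organoids, where 1 had an unadjusted p under 0.05. In WT organoids 2 fell, where 5.75% of all tested genes fell. Muc2 was 12.14, 11.84, 12.03 and 12.10 on the WT + TNFa arrays, against 12.17, 12.27, 12.37 and 12.28 on the WT arrays. The groups were separate, and whether the calls of these listed genes hold with an array left out was not tested. Muc4, a membrane mucin, fell by 0.30 in WT organoids (adjusted p = 0.0351). Muc1, another membrane mucin, was lower in mutant than in WT organoids without TNFa, with a difference of -0.68 ± 0.17 (adjusted p = 0.0365). Of 29 tested genes for sugar nucleotide and sulfate supply, 1 rose and 2 fell with TNFa in mutant organoids. Among all tested genes 3.51% rose and 2.47% fell there. In WT organoids 0 rose and 4 fell, where 5.03% and 5.75% of all tested genes did. Ugdh, which makes the UDP-glucuronate used for chondroitin, fell in both, by 0.64 in mutant (adjusted p = 6.05e-05) and 0.64 in WT organoids (adjusted p = 4.41e-05). Gmds, of GDP-fucose synthesis, fell in both, at -0.28 ± 0.06 (adjusted p = 0.00898) and -0.21 ± 0.06 (adjusted p = 0.0388). Nans, which makes sialic acid, rose in mutant organoids, 0.34 ± 0.07 (adjusted p = 0.00689), and had 0.23 ± 0.07 (adjusted p = 0.0522) in WT organoids. The sulfate transporter Slc26a2 and the sulfate donor enzyme Papss2 fell in WT organoids, at -0.37 ± 0.08 (adjusted p = 0.00355) and -0.27 ± 0.06 (adjusted p = 0.00629). In mutant organoids they had -0.22 ± 0.08 (adjusted p = 0.129) and -0.15 ± 0.06 (adjusted p = 0.181), which were not called. The difference of TNFa effects was called for neither. By genotype, limma called 0 of the 29 with TNFa and 0 without, and 4 had an unadjusted p under 0.05 in each condition.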

How the data were processed

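The authors used RMA in Affymetrix Expression Console, per the submitters' processing notes. The deposited values are log2 signals, 1 column per array, from 2.23 to 12.9, and array medians lay between 7.02 and 7.11. Tool versions, array design and genome build are not given in the sources used here. RMA summarizes several probes per probe set and quantile-normalizes arrays, so a difference shared by most genes would be removed. Of 19825 probe sets, 18851 carried 1 gene symbol, 974 carried none and 0 carried several. The brightest probe set stood for a gene.

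Genes above their array's 40th percentile (6.40 to 6.56 log2) on at least 4 of 16 arrays were tested. Group means were compared with limma 3.58.1 (R 4.3.3) in 1 fit to all 16 arrays, for 5 comparisons: TNFa in mutant, TNFa in WT, genotype with TNFa, genotype without TNFa, and the difference of TNFa effects. P-values were adjusted by the Benjamini-Hochberg method over all 11766 tested genes. The procedure was tested on simulated data. With 4 arrays per group, the number of arrays limits the precision. The deposited values hold no counts. The members and gene lists were chosen with earlier results of these data known. All members called in a comparison are named, with the core enzymes and the brightest and dimmest member of each step, and of the lists every called gene. Alternatives were dropping the filter or raising it to the 60th percentile, averaging probe sets, array weights, robust fitting with a variance trend, repeated quantile normalization, centring on medians, fits to the compared groups alone, the title number as a block, and leaving out each array.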

Additional observations from a re-analysis of the deposited data

Results flagged for a closer look

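Groups of 4 arrays were checked for an array far from the other 3, by Dixon's gap-to-range ratio at its 95% critical value. Of 180 groups of named genes 18 met this, and chance gives about 1 in 20. No explanation was weighed for them.

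Of the called enzymes, on the mutant + TNFa arrays B3galt5 (10.09) and Chst4 (9.31) stood above their groups on array 3, as did St6galnac1 (7.64), Fut2 stood below on array 1 (8.29) and St3gal3 above on array 1 (11.18). On the array mutant 2, B4galt6 (10.81) and Gcnt3 (9.09) were high. On the WT + TNFa arrays, Mgat3 was low on array 2 (9.03) and Fut2 on array 3 (8.24). On the WT arrays, Chst11 was high on array 3 (6.97), and Chst15 (7.80) and Mgat3 (9.66) were high on array 4.

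The dim B3galt1 was low on the array mutant + TNFa 3 (4.50) and high on WT + TNFa 2 (5.19), and the dim St6galnac5 was low on WT + TNFa 4 (4.34). Among the carrier, supply and goblet genes, Muc2 was high on mutant + TNFa 4 (12.16), Ang4 low on mutant 1 (9.73) and Nans high on WT + TNFa 2 (11.58).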

How the results depend on the processing

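No called member changed direction under the alternatives run. Over single members and settings, 3491 values kept their side of the threshold, 100 lost the call and 62 gained one. The 3491 include members that were not called and so had no call to lose. They also include averaging probe sets, which changes no value of a member with 1 probe set. The 100 are therefore not a share of the calls. Without TNFa, 11 members were called for genotype, 7 without the filter and 5 to 13 when 1 array was left out. With TNFa, 6 were called, 12 with array weights and 2 in a fit to the compared groups alone. For the other comparisons that fit did not always call fewer. It called 14 members for TNFa in mutant organoids (11 with all arrays) and 14 for TNFa in WT organoids (17 with all arrays). For genotype without TNFa it called 11, as with all arrays. The cause of these changes was not tested. The TNFa totals of both directions stayed within 1.5 times: 15 to 18 for TNFa in WT and 10 to 15 for TNFa in mutant organoids when 1 array was left out. By direction, members that fell with TNFa in mutant organoids numbered 5, 8 without WT + TNFa 2 and 9 with array weights. Those lower in the mutant without TNFa numbered 9, 5 without the filter and 4 to 10 when 1 array was left out, and those higher numbered 2 and then 1 to 3. With TNFa 3 were lower, 0 in the compared groups alone, 7 with array weights and 1 without mutant + TNFa 2, and 3 were higher, 5 with array weights. In the compared groups alone St3gal1 and Chst15 also lost the call for genotype with TNFa, St3gal3 that without TNFa, and Fut9 and Gcnt3 that for TNFa in WT. Galnt10, not called in any comparison, gained a call for TNFa in mutant organoids under 9 settings. Deviations of same-numbered arrays from their group means had correlations from -0.31 to 0.28. Such correlations cannot settle whether the numbers pair the arrays, and no label says so. With the title number as a replicate block, 11 members were called for TNFa in mutant, 17 for TNFa in WT, 5 for genotype with TNFa, 8 for genotype without TNFa, and 0 for the difference between TNFa effects. With 4 arrays a group and signals near 6.56 log2, small changes of dim members could be missed.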
